A study of Mus musculus with 2 samples.

Results

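Arginine and itaconate metabolism was followed through 7 genes, Slc7a2, Arg1, Arg2, Nos2, Ass1, Odc1 and Acod1, chosen by symbol from the 32285 genes measured, and all 7 were found. They were read in single leukocytes from mouse gingiva, in cells gated by marker genes as monocytes, macrophages, dendritic cells or neutrophils. The diabetic library came from mice given streptozotocin, which destroys insulin-producing beta cells and so models type I diabetes, and the normoglycemic library from mice without diabetes. Both groups carried the genotype CD11CCre-/-;FoxoLL on a mixed C57B6 and FVB background. This means loxP sites around exon 2 of Foxo1 and no Cre, with normal Foxo1 protein per the series description. Both underwent 2 weeks of bacterially induced inflammation and a waiting period of 2 weeks, and the animals' ages are not given in the sources used here. Each library was 1 pool of 4 mice, so no replicate exists and no test across animals was possible. Live CD45+ cells were sorted free of CD31+ and Ter-119+ cells, with an enrichment of 20% for CD11c+CD45+ cells, so the shares of cell types reflect the sort as well as the tissue.

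Arginine enters myeloid cells through cationic amino acid transporters and is then shared between competing enzymes. Arginases split it into urea and ornithine, the substrate for polyamine and proline synthesis, whereas inducible nitric oxide synthase turns it into nitric oxide and citrulline, from which arginine can be rebuilt. Acod1 opens a separate route: it makes itaconate from the Krebs cycle intermediate cis-aconitate in activated macrophages and neutrophils. High Arg1 and high Nos2 are often used as opposite labels of macrophage states.

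The genes lie on 6 chromosomes (GRCm38.p6, the RefSeq assembly that corresponds to mm10). Slc7a2 (ENSMUSG00000031596) spans chr8:40862341-40922070 and Arg1 (ENSMUSG00000019987) spans chr10:24915207-24927470. Arg2 (ENSMUSG00000021125) lies at chr12:79130788-79156301 and Odc1 (ENSMUSG00000011179) at chr12:17544808-17551502. Nos2 (ENSMUSG00000020826) is at chr11:78920787-78960226, Ass1 (ENSMUSG00000076441) at chr2:31470270-31520670 and Acod1 (ENSMUSG00000022126) at chr14:103047012-103056573. RefSeq promoter windows of 300 bases, 250 before the gene start and 50 from it, were matched for 3 of the 7 genes, Acod1, Ass1 and Odc1. The Odc1 window, chr12:17544623-17544922, is set on a start that lies downstream of the Odc1 gene start given above. The windows of Acod1 and Ass1 are shown because these genes differed most in where they were found, Acod1 in neutrophils and Ass1 in monocytes and mature dendritic cells. Both are on the plus strand, at chr14:103046762-103047061 and chr2:31470020-31470319, and capitals mark the motif matches.
Acod1: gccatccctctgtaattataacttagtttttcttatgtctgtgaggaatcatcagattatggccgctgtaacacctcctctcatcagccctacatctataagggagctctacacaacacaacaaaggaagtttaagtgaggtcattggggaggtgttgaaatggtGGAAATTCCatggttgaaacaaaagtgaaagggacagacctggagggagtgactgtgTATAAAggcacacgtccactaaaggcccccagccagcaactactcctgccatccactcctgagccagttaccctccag
Ass1: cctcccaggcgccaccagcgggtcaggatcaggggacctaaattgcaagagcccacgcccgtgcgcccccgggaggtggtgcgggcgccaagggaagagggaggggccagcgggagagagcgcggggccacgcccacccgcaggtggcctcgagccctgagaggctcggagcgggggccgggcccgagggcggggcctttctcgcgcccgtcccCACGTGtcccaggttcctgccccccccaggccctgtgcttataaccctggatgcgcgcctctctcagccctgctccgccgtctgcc

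The 3 windows were searched on both strands for TATAAA (a core promoter element), GGNNNTTCC (a core of NF-kB sites), TTCNNNGAA (a STAT palindrome), TTGCNNNAA (a C/EBP core) and CACGTG (an E box), and no 2 matches overlapped except the palindromic one with itself. Acod1 held TATAAA from 28 to 23 bases before its start and GGAAATTCC, which reads as GGNNNTTCC on both strands, from 85 to 77 bases before it. Ass1 held CACGTG from 36 to 31 bases before its start, and Odc1 held none of the 5. Among all 32851 RefSeq windows of this length, 13.6% held TATAAA, 18.5% GGNNNTTCC, 8.30% TTCNNNGAA, 9.56% TTGCNNNAA and 7.15% CACGTG. In base composition the windows stood apart: Acod1 had 47% G and C and 2 CpG, Ass1 74% and 27, and Odc1 78% and 42, beside medians of 52.7% and 7 over all windows.

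The diabetic matrix held 10496 barcodes with 78220582 unique molecular identifiers (UMIs, each 1 captured mRNA molecule), and the normoglycemic matrix 11280 barcodes with 89339733 UMIs. Both exceed the 10000 cells loaded per lane, and 32 barcodes occurred in both libraries. After filtering, 10260 diabetic and 10948 normoglycemic cells remained, of which 1086 and 1146 were gated as monocytes, 1265 and 1404 as macrophages, 432 and 544 as dendritic cells and 5007 and 5262 as neutrophils. In both libraries, 8 of 8 markers of the monocyte, macrophage and neutrophil panels each were found in at least 20% of the cells of their own gate, as were 15 of 20 dendritic markers. The gates are cut from a per-cell score. Cells within the wider margin of a second lineage made up 26.1% of diabetic and 23.9% of normoglycemic monocytes, 14.8% and 11.3% of macrophages, 39.4% and 29.6% of dendritic cells, and 2.58% and 4.68% of neutrophils. In monocytes the median score was 0.438 in diabetic and 0.419 in normoglycemic cells for monocyte markers, and 0.123 and 0.104 for macrophage markers. Median depth was 10419 and 11202 UMIs in monocytes, 10690 and 11720 in macrophages, 16232 and 17746 in dendritic cells, but 3465 and 4064 in neutrophils. T, NK and B cells (590 diabetic, 1221 normoglycemic, median 4966 and 5434 UMIs) served as a background for free RNA, which droplets capture with any cell.

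Levels are UMIs of the gene per 1000000 UMIs of the gate (CPM), given for the diabetic and then the normoglycemic library, and intervals are 95% counting intervals that leave out all variation between animals. A gene was called past the fold when the interval of its diabetic over normoglycemic ratio lay wholly beyond 1.5-fold and its level reached 10 CPM in either library.

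**Figure D1:**
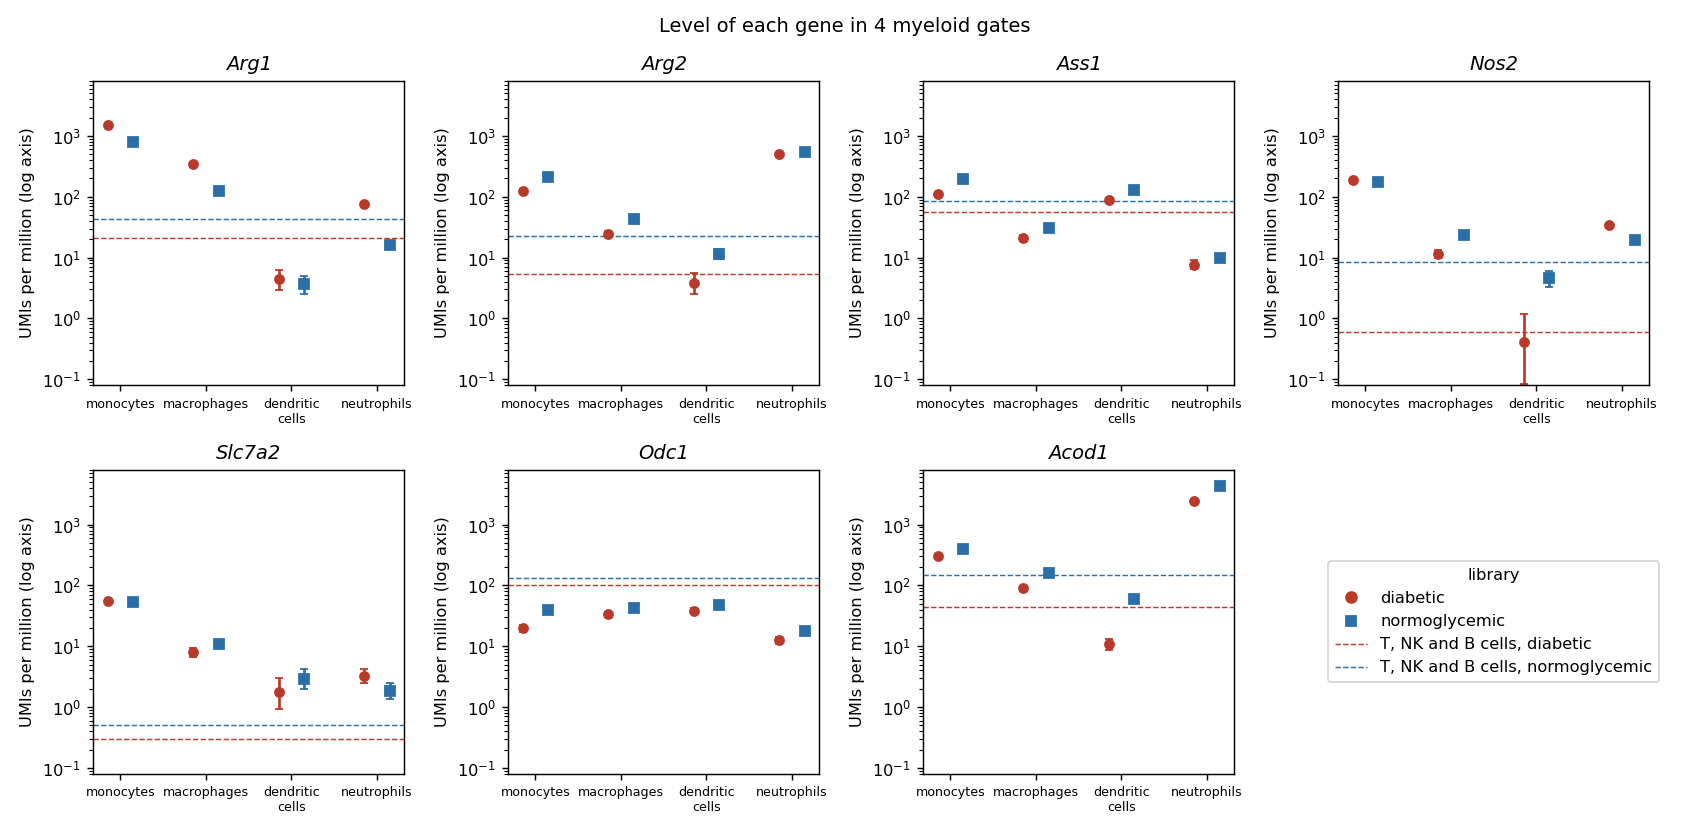
Level of each gene (CPM, log axis) in the 4 myeloid gates, diabetic circles left of normoglycemic squares, bars 95% Poisson intervals, dashed lines the level in T, NK and B cells of each library. Arg1, Nos2, Ass1 and Slc7a2 were highest in monocytes, Arg2 and Acod1 in neutrophils, and Odc1 lay below its lymphocyte level in all 4 gates.

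Slc7a2, which encodes the inducible arginine transporter CAT2, was a monocyte transcript. It stood at 55.1 CPM in diabetic and 52.5 CPM in normoglycemic monocytes, at 7.92 and 10.8 CPM in macrophages, and at 3.27 CPM or less in dendritic cells and neutrophils. The dendritic cell and neutrophil levels had overlapping intervals in both libraries, so their order was not resolved. Monocytes did not differ past the fold, with a ratio of 1.05 (0.941 to 1.17). T, NK and B cells held 0.293 and 0.508 CPM. Thinned to 1000 UMIs per cell, 3.99% of diabetic and 3.95% of normoglycemic monocytes had a UMI of Slc7a2, against 15.3% and 12.0% unthinned.

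Arg1, the cytosolic arginase, was higher in the diabetic library in monocytes, macrophages and neutrophils. Diabetic monocytes held 17482 UMIs or 1501 CPM, against 10416 UMIs or 789 CPM in normoglycemic monocytes, a ratio of 1.90 (1.86 to 1.95). The share of monocytes with a UMI was 31.2% and 20.9% after thinning and 40.1% and 33.1% before it, beside thinned shares of 1.86% and 0.905% in T, NK and B cells. Both the level and the share were thus higher in the diabetic library, and neither lay near the background. Macrophages held 350 CPM and 123 CPM, a ratio of 2.85 (2.71 to 3.00). Part of this came from a few cells: 72 diabetic and 25 normoglycemic macrophage-gated cells that clustered with monocytes had 3018 CPM and 717 CPM. Among macrophage-gated cells in macrophage clusters, an alternative chosen after seeing the data, the levels were 185 CPM and 96.3 CPM, a ratio of 1.92 (1.80 to 2.05).

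The neutrophil gate had 77.2 CPM of Arg1 in the diabetic and 16.0 CPM in the normoglycemic library, a ratio of 4.83 (4.33 to 5.40), but the mRNA sat mostly in other cells. Of these UMIs, 83.2% in the diabetic and 81.4% in the normoglycemic library lay in the 175 and 135 gated cells that fell in clusters of another name. Those in the 2 monocyte clusters had 812 CPM and 2283 CPM in the diabetic library, and 166 CPM and 669 CPM in the normoglycemic one. In the remaining 4832 and 5127 cells the level was 14.4 CPM and 3.20 CPM, below the 19.2 CPM and 18.2 CPM of B cells of the same library. These cells are therefore not read as expressing Arg1. The whole normoglycemic gate, at 16.0 CPM, was also below the B cell level, so the ratio of 4.83 has a background level as its denominator. Dendritic cells, with 4.36 CPM and 3.63 CPM, were below the B cell level too.

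Arg2, the mitochondrial arginase, was a neutrophil gene here, and its neutrophil level was close in the libraries. It stood at 506 CPM in diabetic and 548 CPM in normoglycemic neutrophils, a ratio of 0.923 (0.900 to 0.948), and neutrophils held 79.6% and 72.8% of all its UMIs. Monocytes held less of it in the diabetic library, 126 CPM against 210 CPM in the normoglycemic one, a ratio of 0.600 (0.563 to 0.639). Macrophages held 24.5 CPM and 42.9 CPM, a ratio of 0.572 (0.503 to 0.649), beside 5.27 CPM and 23.0 CPM in T, NK and B cells. Dendritic cells had 3.81 CPM and 11.4 CPM, below those background levels, so their ratio of 0.334 describes a trace signal. With the lymphocyte level of each library subtracted, the macrophage ratio of Arg2 was 0.967 (0.851 to 1.10), so the macrophage difference was not separable from the background. In monocytes Arg1 was thus higher and Arg2 lower in the diabetic library when all cells were taken, though not in female cells alone, as given below for the sexes.

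Nos2, the inducible nitric oxide synthase, was nearly as high in one library as in the other in monocytes when the whole gate was taken. They had 189 CPM in the diabetic and 176 CPM in the normoglycemic library, a ratio of 1.07 (1.01 to 1.14), in 17.4% and 14.3% of the cells, or 11.0% and 7.38% after thinning. Of all Nos2 UMIs, 59.0% and 51.2% lay in gated monocytes. Neutrophils held 34.6 CPM and 19.3 CPM, a ratio of 1.79 (1.60 to 2.02), and those in neutrophil clusters 23.9 CPM and 14.4 CPM, a ratio of 1.67 (1.44 to 1.93) whose interval reached below 1.5. B cells had no Nos2 UMI in the diabetic library and 2.43 CPM in the normoglycemic one, and T, NK and B cells together had 0.585 CPM and 8.50 CPM. Macrophages had 11.4 CPM and 23.4 CPM, a ratio of 0.489 (0.406 to 0.587), from 27 diabetic and 39 normoglycemic cells. That direction did not hold: with the cells of highest doublet score removed the macrophage levels were 11.1 CPM and 2.53 CPM, a ratio of 4.39 (3.05 to 6.45). The second highest gate was neutrophils in the diabetic library and macrophages in the normoglycemic one. Dendritic cells had 3 UMIs and 45 UMIs, 0.408 CPM and 4.54 CPM, under their library's T, NK and B cell level of 0.585 CPM and 8.50 CPM.

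Ass1, which joins citrulline to aspartate in the rebuilding of arginine, was lower in the diabetic library in monocytes, at 110 CPM against 198 CPM, a ratio of 0.556 (0.520 to 0.595). The share of monocytes with a UMI was 8.54% in the diabetic and 14.5% in the normoglycemic library after thinning. Dendritic cells came next with 87.0 CPM and 129 CPM, a ratio of 0.676 (0.614 to 0.744) whose interval crossed the fold limit. Within them, mature dendritic cells, which carry Ccr7 and Fscn1, stood at 241 CPM and 392 CPM, type 1 conventional cells at 70.2 CPM and 150 CPM, and type 2 at 43.5 CPM and 65.6 CPM. Mature cells were the highest of the 3 in both libraries, and above the monocytes. T cells held 72.9 CPM and 111 CPM but B cells 26.0 CPM and 15.8 CPM, so the T cell signal is larger than the B cell background. Macrophages had 21.4 CPM and 30.4 CPM, below the B cell level in the diabetic library and above it in the normoglycemic one, and neutrophil-gated cells in neutrophil clusters 0.851 CPM and 1.56 CPM.

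Odc1, the ornithine decarboxylase that starts polyamine synthesis, was not concentrated in myeloid cells. Its levels were 37.7 CPM in diabetic and 47.9 CPM in normoglycemic dendritic cells, 34.0 CPM and 41.8 CPM in macrophages, 19.9 CPM and 39.0 CPM in monocytes, and 12.6 CPM and 17.7 CPM in neutrophils. All were below the 102 CPM and 131 CPM of T, NK and B cells. Dendritic cells and macrophages overlapped in both libraries, and macrophages and monocytes in the normoglycemic one. Only the monocyte ratio among the 4 passed the fold, 0.511 (0.436 to 0.598), on 232 and 514 UMIs.

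Acod1, the itaconate-forming enzyme, was the neutrophil gene of the set. Diabetic neutrophils held 48357 UMIs or 2473 CPM, against 108759 UMIs or 4251 CPM in normoglycemic neutrophils, a ratio of 0.582 (0.576 to 0.588). This was 86.2% of all Acod1 UMIs in the diabetic and 86.7% in the normoglycemic library. After thinning, 73.5% and 88.0% of neutrophils had a UMI, and unthinned 87.3% and 96.0%, so most neutrophils of both libraries carried it. Monocytes had 308 CPM and 399 CPM, a ratio of 0.772 (0.740 to 0.806), not past the fold. Free Acod1 mRNA was higher in the normoglycemic library, with 44.5 CPM and 148 CPM in T, NK and B cells. Macrophages had 90.5 CPM and 162 CPM, a ratio of 0.559 (0.524 to 0.597), but with the lymphocyte level subtracted their ratio was 3.32. Dendritic cells, at 10.8 CPM and 60.2 CPM with a ratio of 0.179, were below that background in both libraries and are not read as expressing it.

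Counted per gate, 1 of the 7 genes was higher and 3 were lower in diabetic monocytes (Arg1; Arg2, Ass1 and Odc1), where 5.92% of 6674 tested genes were past the fold, 2.13% higher and 3.79% lower. In macrophages 1 was higher (Arg1) and 3 were lower (Arg2, Nos2 and Acod1), beside 3.19% of 7518 genes, 1.36% higher and 1.84% lower. None of these 3 lower calls held throughout. Arg2 and Acod1 lost theirs with the lymphocyte level subtracted, and Nos2 without the cells of highest doublet score. In dendritic cells 2 of the 4 genes that reached 10 CPM were lower (Arg2 and Acod1), both under the lymphocyte background, beside 4.95% of 6990 genes, 1.8% higher and 3.15% lower. Among neutrophils 2 of 5 were higher (Arg1 and Nos2) and 1 was lower (Acod1), but there 20.3% of 4247 genes were past the fold, 11% higher and 9.25% lower. The neutrophils of the libraries also fell into different clusters: 1 cluster held 1342 diabetic and 3 normoglycemic cells, and another 152 diabetic and 1986 normoglycemic cells. The median gene of the neutrophil gate had a log2 ratio of 0.17, and TMM scaling shifted all its ratios by -0.25 on the log2 scale. With that scaling the Acod1 ratio was 0.488 and the Arg1 ratio 4.06, while the interval of Nos2 reached below 1.5, so Nos2 was no longer past the fold. Whether pool, batch or diabetes set these differences cannot be told apart.

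**Figure D2:**
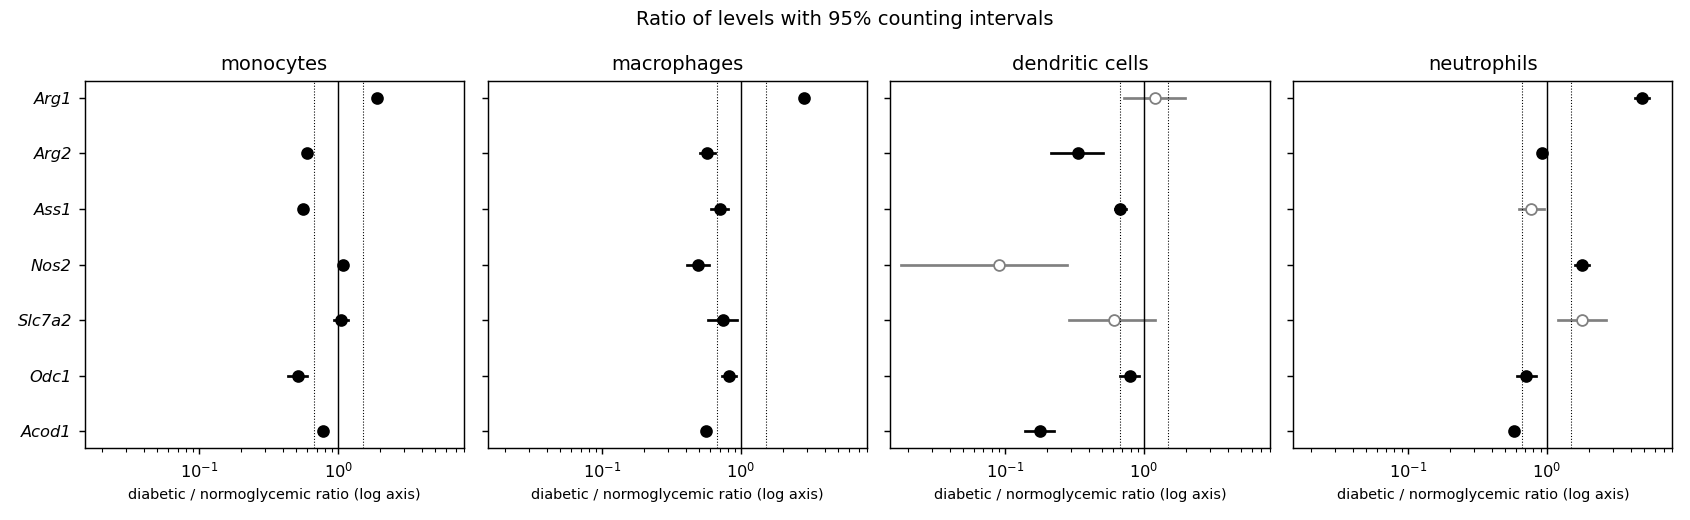
Diabetic over normoglycemic ratio of each gene (log axis) in the 4 gates, with 95% counting intervals, the solid line at 1 and dotted lines at 1.5-fold in either direction. Open grey points are genes under 10 CPM in both libraries. Arg1 lay beyond 1.5-fold on the higher side in monocytes, macrophages and neutrophils, and Acod1 on the lower side in macrophages, dendritic cells and neutrophils.

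Co-detection per cell was set against the number expected if detection were independent within 10 bins of UMI depth. Over all gated monocytes, 6 of the genes were found together and Odc1 was not part of that pattern. Within the main monocyte clusters most of these pairs had no interval above 1, as given below. Of 21 pairs, 15 in diabetic and 14 in normoglycemic monocytes had an interval above 1, and all 15 and 14 were pairs without Odc1, of which there are 15. Both Arg1 and Nos2 were found in 144 diabetic monocytes where 75.2 were expected, a ratio of 1.91 (1.61 to 2.25), and in 94 normoglycemic monocytes where 56.3 were expected, a ratio of 1.67 (1.35 to 2.04). Put as shares, Nos2 was found in 33.0% of diabetic monocytes with Arg1 and 6.92% of those without it, and in 24.8% and 9.13% of the normoglycemic ones. The enzymes often used as opposite labels thus occurred in the same cells more often than depth alone gave. The highest ratio in these unthinned counts was that of Nos2 with the arginine transporter Slc7a2, in 77 cells against 29.6 expected (2.60, 2.05 to 3.25) in diabetic and 58 against 21.6 (2.69, 2.04 to 3.48) in normoglycemic monocytes. Thinned to 1000 UMIs per cell, 12 diabetic and 9 normoglycemic pairs had an interval above 1, none of them with Odc1, and the ratio of Nos2 with Slc7a2 was 2.53 (1.31 to 4.41) and 5.12 (2.98 to 8.19). In diabetic monocytes Ass1 with Nos2 (2.75) and Ass1 with Slc7a2 (2.72) were then higher, with overlapping intervals. In normoglycemic monocytes Arg1 with Arg2 (1.08, 0.785 to 1.44) and Ass1 with Nos2 (1.31, 0.751 to 2.13) were among those no longer above 1. Unthinned pairs with Odc1 ran from 0.761 to 1.01 in diabetic and from 0.890 to 1.03 in normoglycemic monocytes. The diabetic pairs of Odc1 with Arg2 (0.761) and with Acod1 (0.765) had intervals below 1.

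**Figure D3:**
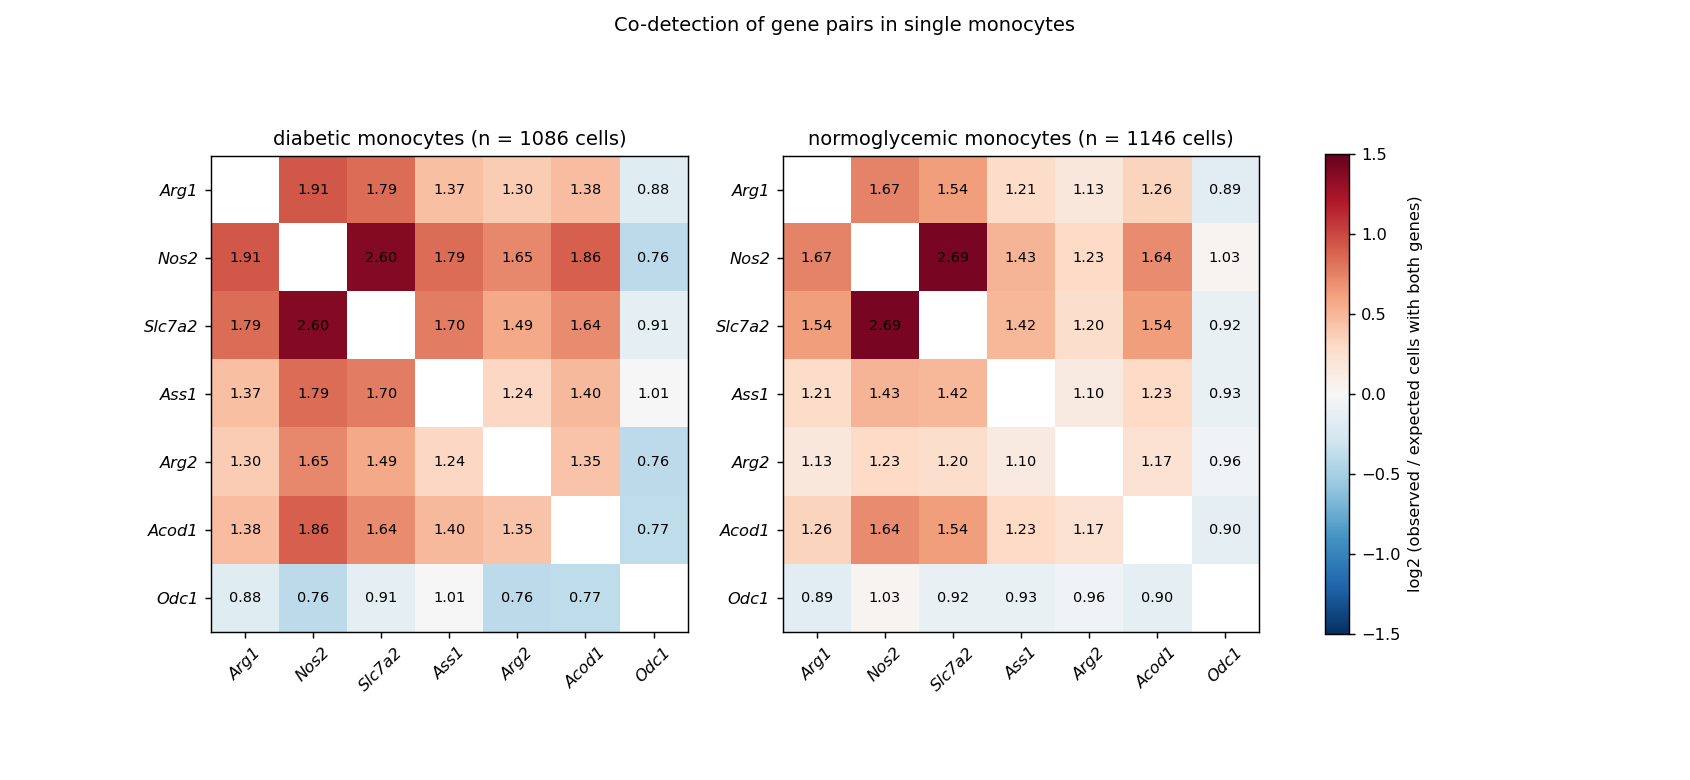
Observed over expected number of monocytes with both genes of a pair, printed in each square, colour on a log2 scale, diabetic left and normoglycemic right. Pairs among Arg1, Nos2, Slc7a2, Ass1, Arg2 and Acod1 are above 1 in both libraries, and the Odc1 row is near or below 1.

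The pairing followed the amount of Arg1. Among diabetic monocytes, Nos2 was found in 6.92% of the 650 cells with no Arg1 UMI, 20.5% of the 78 with 1 to 2, 12.3% of the 65 with 3 to 9, 40.6% of the 170 with 10 to 49 and 41.5% of the 123 with 50 or more. The normoglycemic shares were 9.13% of 767, 18.8% of 96, 21.3% of 61, 25.2% of 151 and 35.2% of 71 cells. Cells with many Arg1 UMIs were therefore those most often positive for Nos2, while Odc1 stayed between 11.5% and 15.2% in the diabetic and between 14.1% and 22.9% in the normoglycemic steps. Median depth in the same steps was 10865, 10060, 8284, 8989 and 12044 UMIs in the diabetic library, so depth did not run with the Arg1 steps there. In normoglycemic monocytes it was 10975, 11778, 10852, 11228 and 13774 UMIs.

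**Figure D4:**
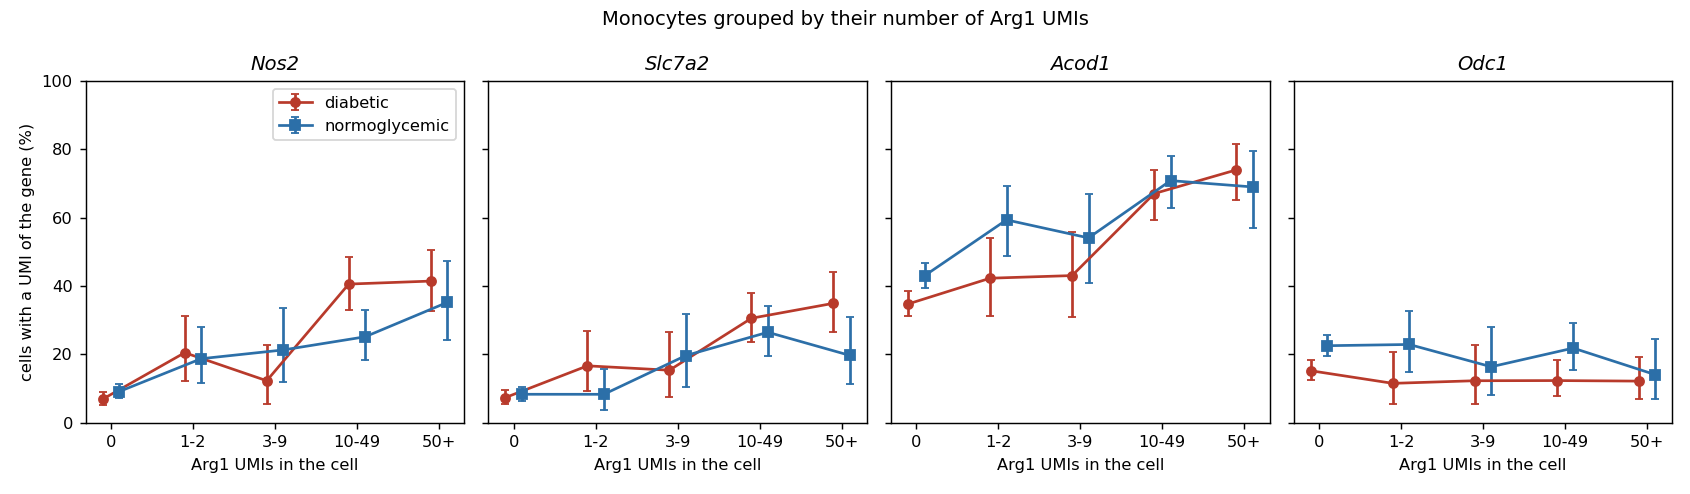
Share of monocytes with a UMI of Nos2, Slc7a2, Acod1 or Odc1 (percent, y axis) by the number of Arg1 UMIs in the cell (x axis), diabetic circles and normoglycemic squares, bars exact 95% binomial intervals. The share with Nos2 is 6.92% and 9.13% at 0 Arg1 UMIs and 41.5% and 35.2% at 50 or more, while the Odc1 share does not climb.

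Sorting monocytes by Arg1 and Nos2 gave 13.3% with both in the diabetic and 8.20% in the normoglycemic library. Arg1 alone was found in 26.9% and 24.9%, Nos2 alone in 4.14% and 6.11%, and neither in 55.7% and 60.8%. Cells with both also had the highest share of Slc7a2, 43.8% in the diabetic and 38.3% in the normoglycemic library, against 5.62% and 6.03% of cells with neither. Acod1 was in 82.6% and 78.7% of cells with both, and in 91.1% and 95.7% of cells with Nos2 alone. At least 4 of the 7 genes were found in 23.8% of diabetic and 27.7% of normoglycemic monocytes, against 3.16% and 4.49% of macrophages, 0.926% and 2.21% of dendritic cells and 1.16% and 1.12% of neutrophils.

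The monocytes fell mainly into 2 clusters, formed without the 7 genes, that differed in these genes, and the pairs were counted within each. The first held 625 diabetic and 496 normoglycemic gated monocytes, with 885 CPM and 379 CPM of Arg1, 19.0 CPM and 2.80 CPM of Nos2 and 10.0 CPM and 4.10 CPM of Slc7a2. The other held 318 diabetic and 453 normoglycemic cells, with 3611 CPM and 1529 CPM of Arg1, 653 CPM and 436 CPM of Nos2 and 168 CPM and 124 CPM of Slc7a2. Odc1 was at 15.8 CPM and 33.6 CPM in the first and 12.0 CPM and 36.1 CPM in the other, so it did not share the step between them. Arg1, Nos2 and Slc7a2 were each higher in the diabetic library within each of the 2 clusters. A smaller part of the diabetic monocytes lay in the Nos2-rich cluster, 29.3% against 39.5% of the normoglycemic ones. Within the Nos2-rich cluster, Arg1 and Nos2 met in 126 diabetic cells against 120 expected (1.05, 0.873 to 1.25) and in 88 normoglycemic cells against 83.1 (1.06, 0.849 to 1.30). Nos2 with Slc7a2 remained above 1 there in the normoglycemic library (1.49, 1.13 to 1.93), and was 1.11 (0.866 to 1.39) in the diabetic one. In the Nos2-poor cluster, Arg1 with Nos2 was at 2.32 (1.35 to 3.72) in diabetic cells, on 17 cells with both, and at 0.962 (0.116 to 3.47) in normoglycemic cells, on 2 cells. Ass1 with Nos2 was at 2.77 (1.64 to 4.38) in the diabetic cells of that cluster. In the Nos2-rich cluster, Nos2 with Slc7a2 in the normoglycemic library was the only pair with an interval above 1. In the Nos2-poor cluster no normoglycemic pair had such an interval. The diabetic pairs that did were Arg1 with Ass1, Nos2 and Slc7a2, Arg2 with Acod1, and Ass1 with Nos2. Most pairs of the whole-gate pattern thus had no interval above 1 within the clusters. Where both genes are common, as in the Nos2-rich cluster, the ratio can rise little above 1, so an absence of pairing is not shown. There Acod1 was in 91.7% of diabetic cells with Ass1 and 65.5% without it, but in 81.3% with Arg1 and 85.5% without it. These shares are not adjusted for depth.

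Macrophages showed the Arg1 and Nos2 pairing on small numbers, and few pairs stood above 1 in dendritic cells and neutrophils. Macrophages had both Arg1 and Nos2 in 16 diabetic cells against 5.75 expected (2.78, 1.59 to 4.52) and in 23 normoglycemic cells against 6.37 (3.61, 2.29 to 5.42). The 23 cells had a median of 19387 UMIs, against 11560 in normoglycemic macrophages with neither gene. Without the cells of highest doublet score, 13 diabetic cells against 4.66 (2.79, 1.49 to 4.77) and 8 normoglycemic cells against 1.94 (4.11, 1.78 to 8.11) had both. Arg2 with Acod1 was in 87 diabetic macrophages against 44.7 (1.95, 1.56 to 2.40) and 164 normoglycemic ones against 100 (1.63, 1.39 to 1.90). Both are abundant neutrophil transcripts, and markers of the neutrophil panel summed to 2296 CPM in diabetic and 3290 CPM in normoglycemic macrophages; their part in this pair was not tested. In neutrophils themselves the same pair met in 3305 diabetic cells against 3258 (1.015, 0.980 to 1.05) and 4074 normoglycemic cells against 4058 (1.004, 0.973 to 1.04). Most neutrophils held both genes, so this ratio could hardly exceed 1 and does not show independence. Arg2 was in 75.6% of diabetic neutrophils with Acod1 and 54.5% of those without it. The normoglycemic shares were 80.6% and 59.3%, and none of these shares is adjusted for depth. Among dendritic cells 7 diabetic and 9 normoglycemic pairs had at least 5 expected cells, and 0 and 1 of them had an interval above 1.

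Cells of both sexes were present in each pool and in unlike parts, so the ratios were also taken within sex. Female cells, called by Xist without Y-linked transcripts, were 34.1% of the called monocytes in the diabetic and 9.31% in the normoglycemic library, 52.6% and 42.8% of macrophages and 11.0% and 1.90% of neutrophils. Arg1 was higher in the diabetic library within both sexes. In male monocytes it stood at 2040 CPM and 821 CPM, a ratio of 2.48 (2.41 to 2.56), and in female monocytes at 451 CPM and 165 CPM, a ratio of 2.74 (2.32 to 3.24). Male macrophages had 512 CPM and 146 CPM, a ratio of 3.50, and female ones 143 CPM and 45.3 CPM, a ratio of 3.15. In both libraries Arg1 was thus lower in female than in male cells of these 2 gates. Since the mice of a pool are not told apart, sex and the single animals that carried it cannot be told apart.

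In monocytes, Arg2 and Acod1 did not keep their direction across the sexes, nor did Acod1 in neutrophils. Male monocytes had 126 CPM and 223 CPM of Arg2, a ratio of 0.564 (0.517 to 0.614), and female monocytes 122 CPM and 58.4 CPM, a ratio of 2.08 (1.57 to 2.80). For Acod1, male monocytes had 282 CPM and 428 CPM, a ratio of 0.659 (0.622 to 0.699), while female monocytes had 360 CPM and 31.3 CPM, a ratio of 11.5 (8.02 to 17.1). The female normoglycemic monocytes were only 78 cells, and stood apart from the other 3 groups for both genes. Their Nos2 came to 6 UMIs or 6.26 CPM, against 191 CPM in the 271 female diabetic monocytes. In neutrophils Acod1 was at 2391 CPM and 4336 CPM in male cells, a ratio of 0.551 (0.543 to 0.560), and at 2290 CPM and 1948 CPM in 234 and 53 female cells, a ratio of 1.18 (1.09 to 1.27). The 53 female normoglycemic cells also had 141 CPM of Ass1 and 56.7 CPM of Odc1. Male normoglycemic neutrophils had 9.91 CPM and 18.7 CPM. Whether cells of other types were among the 53 was not tested. In macrophages Acod1 was lower in the diabetic library in both sexes, with ratios of 0.676 (0.609 to 0.749) in male and 0.847 (0.735 to 0.976) in female cells. The normoglycemic macrophage levels were 154 CPM in male and 69.1 CPM in female cells, near or below the T, NK and B cell level of that library. This direction was therefore not separable from the background. The dendritic ratios, from levels under the background, were 0.169 and 0.269.

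**Figure D5:**
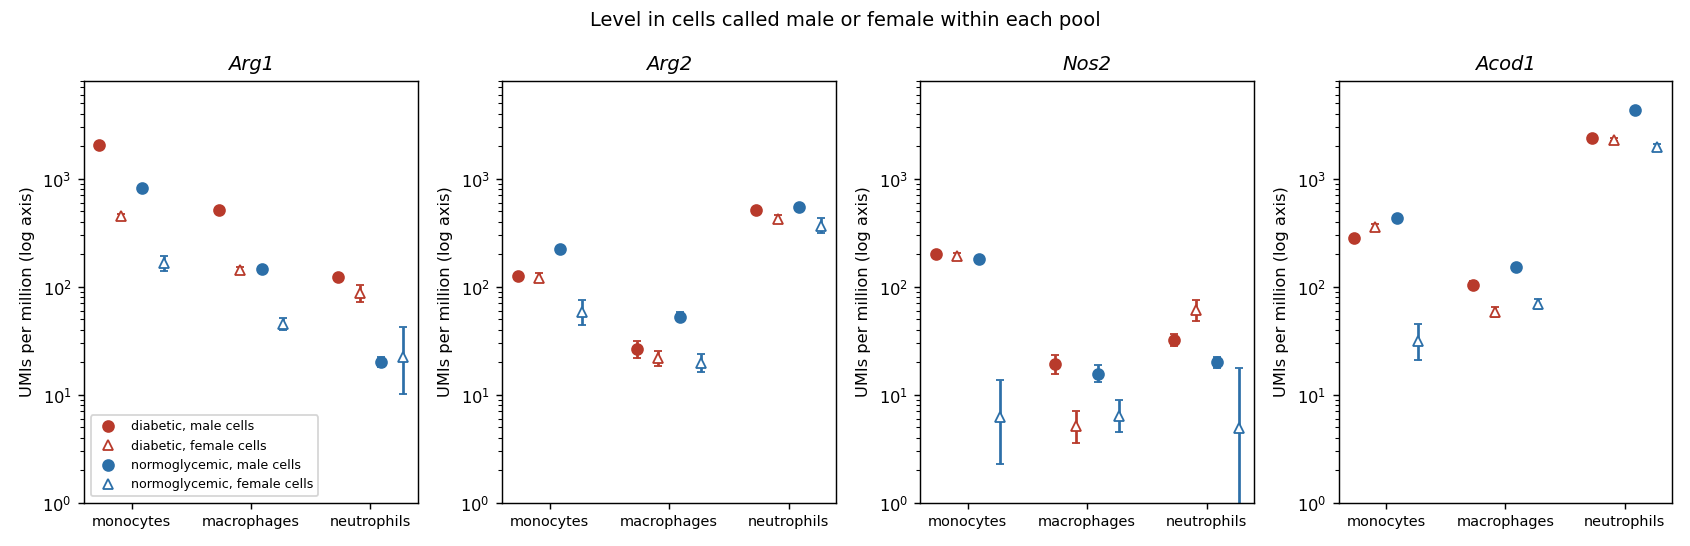
Level of Arg1, Arg2, Nos2 and Acod1 (CPM, log axis) in cells called male (filled circles) or female (open triangles), diabetic left of normoglycemic in each gate, bars 95% Poisson intervals. Arg1 is higher in diabetic cells of both sexes in monocytes and macrophages, and among the monocytes the female normoglycemic cells are lowest for all 4 genes.

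The wider pathway was read from 6 lists of 87 further genes. In monocytes 1 was higher and 5 were lower of the 62 that reached 10 CPM, or 9.68% called beside 5.92% of all genes. Macrophages had 1 higher and 1 lower of 69 (2.90% beside 3.19%), dendritic cells 1 higher and 5 lower of 66 (9.09% beside 4.95%), and neutrophils 1 higher and 6 lower of 41 (17.1% beside 20.3%). Without TMM scaling, the shares in macrophages and neutrophils were thus no larger than the background. Among uptake and urea cycle genes, Slc3a2, the heavy chain that carries several amino acid transporters to the membrane, was at 174 CPM in diabetic and 294 CPM in normoglycemic monocytes, a ratio of 0.593 (0.562 to 0.626), where T, NK and B cells held 178 CPM and 186 CPM. It was the 1 call of that list in the 4 gates.

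Polyamine genes gave 3 calls. Smox, the spermine oxidase, was at 297 CPM and 507 CPM in monocytes, a ratio of 0.586 (0.562 to 0.610), and at 19.9 CPM and 37.3 CPM in dendritic cells, where T, NK and B cells held 62.0 CPM and 96.8 CPM. Srm, the spermidine synthase, was higher in diabetic macrophages, 19.5 CPM and 10.6 CPM, a ratio of 1.84 (1.52 to 2.22), close to the 16.1 CPM and 11.7 CPM of T, NK and B cells. Of the nitric oxide cofactor genes, Pts, which acts in tetrahydrobiopterin synthesis, was at 122 CPM in diabetic and 295 CPM in normoglycemic neutrophils, a ratio of 0.412 (0.393 to 0.431). Cyb5r3 was higher in diabetic neutrophils (13.2 CPM and 7.19 CPM, 1.83, 1.51 to 2.23), but below its T, NK and B cell levels of 33.1 CPM and 27.2 CPM.

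Genes listed as responding to itaconate or its derivatives gave 11 of the 21 calls, all lower in the diabetic library, with Slc7a11 and Hmox1 each counted in more than 1 gate. Of all tested genes, 3.79% in monocytes, 1.84% in macrophages, 3.15% in dendritic cells and 9.25% in neutrophils were called lower. The list had 3 lower of 10 in monocytes, 1 of 11 in macrophages, 3 of 10 in dendritic cells and 4 of 10 in neutrophils, with median log2 ratios of -0.29, -0.23, -0.47 and -0.47, beside -0.01, -0.01, -0.01 and 0.17 over all genes of the gates. Slc7a11, the cystine transporter, stood at 1692 CPM and 2646 CPM in neutrophils (0.640, 0.631 to 0.648), 653 CPM and 1042 CPM in monocytes (0.627), 106 CPM and 212 CPM in macrophages (0.499), and 37.2 CPM and 84.0 CPM in dendritic cells (0.443). All 4 ratios passed the fold, but T, NK and B cells held 24.0 CPM and 121 CPM of it. With that level subtracted, an alternative chosen after seeing the data, none of them did: the ratio was 0.661 (0.652 to 0.670) in neutrophils, 0.684 (0.665 to 0.703) in monocytes and 0.903 (0.851 to 0.959) in macrophages, and the normoglycemic dendritic level was below the background. Of the 11 calls of the list, 6 remained past the fold under this subtraction. Hmox1, heme oxygenase, was at 310 CPM and 697 CPM in monocytes (0.445, 0.428 to 0.462) and at 227 CPM and 495 CPM in neutrophils (0.458, 0.443 to 0.474). Txnrd1, a thioredoxin reductase, was at 197 CPM and 333 CPM in monocytes, a ratio of 0.593 (0.563 to 0.624). Nfe2l2, the transcription factor Nrf2, stood at 342 CPM and 585 CPM in dendritic cells (0.584), and Il6 at 23.1 CPM and 55.4 CPM (0.418). Neutrophils held Atf3, a stress transcription factor, at 332 CPM and 550 CPM (0.604), and Tfeb at 5.52 CPM and 13.5 CPM (0.410), the last at its T, NK and B cell level. T, NK and B cells held less of the other genes too in the diabetic library. Their levels were 15.2 CPM and 38.3 CPM of Hmox1, 46.2 CPM and 64.6 CPM of Txnrd1 and 92.1 CPM and 132 CPM of Nfe2l2. Il6 was at 2.93 CPM and 3.43 CPM there, and Atf3 at 113 CPM and 145 CPM.

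Of the remaining lists, Idh1, an isocitrate dehydrogenase, was higher in diabetic monocytes at 60.5 CPM against 35.3 CPM, a ratio of 1.71 (1.52 to 1.93). It was the 1 call among genes around the itaconate step. Among regulators, Cebpb was at 202 CPM and 429 CPM in dendritic cells (0.470, 0.443 to 0.499), below the 328 CPM and 477 CPM of T, NK and B cells. Jak2, a kinase downstream of interferon receptors, was at 111 CPM in diabetic and 189 CPM in normoglycemic neutrophils, a ratio of 0.588 (0.559 to 0.619).

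The genes whose levels followed each member most closely were taken by Pearson r of log2(CPM + 1) over 18 points, the gates and sub-gates of both libraries, among 5042 genes. The points share libraries, and sub-gates share cells with their gates, so r is a description. Arg1 was followed by Msr1 (0.886), Lif (0.880) and Cd93 (0.879), Arg2 by Clec4e (0.973), Dgat2 (0.973) and Clec4d (0.969), and Acod1 by Tnfrsf23 (0.966), Dgat2 (0.963) and Hcar2 (0.962). Dgat2 was thus among the 3 nearest genes of both neutrophil members. Nos2 was followed by Vcan (0.878), itself a marker used for the monocyte gate, Rbms1 (0.867) and Sod2 (0.863), and Slc7a2 by Dram1 (0.919), Tpi1 (0.915) and Gm15056 (0.890). Ass1 had Hax1 (0.866), Grk3 (0.833) and Hsf2 (0.827), and Odc1 had Bclaf1 (0.945), Nfatc3 (0.939) and Ggps1 (0.939).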

How the data were processed

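The deposited files hold UMI counts per gene and cell, which the authors made with Cell Ranger (4.0.0 per the file headers, 6.0.2 per the submitters' processing notes, build mm10). The 4 antibody capture features, which the labels do not explain, were not used. Cells with at least 500 UMIs, 200 genes and at most 15% mitochondrial UMIs were kept. Each cell took the lineage with the highest marker score (counts scaled to 10000 UMIs, log-transformed, each marker divided by its 95th percentile among positive cells and capped), if it reached 0.2 and led by 0.05. The stricter margin was 0.15. No marker is one of the 7 genes. Scrublet called 0 cells in both libraries where 8.21% of the diabetic and 8.76% of the normoglycemic cells were expected, so it had not worked, and doublets were kept; an alternative removed the 842 and 959 highest scores. Leiden clusters (2000 variable genes without the 7, 30 components, 15 neighbours, resolution 1.0) were named by the same panels. Sex was called per cell: Xist alone for female cells, and any of Uty, Kdm5d, Ddx3y and Eif2s3y without Xist for male ones.

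UMIs were summed per gate and scaled to CPM. Levels have exact Poisson intervals, shares Clopper-Pearson intervals and ratios exact conditional binomial intervals, all at 95% and for counting error only; no p-values were computed. Shares were thinned to 1000 UMIs per cell, leaving out shallower cells. Genes reaching 10 CPM in either library were tested for intervals beyond 1.5-fold. The 7 genes, the markers and the pathway lists were chosen with earlier results of these data known. Named pathway genes are all those past the fold, up to 4 per list and gate. A result that is withheld is counted but not reported here. Fold calls and co-detection were tested on simulated data. Python 3.11.15, scanpy 1.11.5, scipy 1.17.1, pandas 2.3.3, numpy 2.4.6, leidenalg 0.10.2 and edgeR 4.0.16 (TMM factors) under R 4.3.3 were used.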

Additional observations from a re-analysis of the deposited data

Results flagged for a closer look

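For 4 gene and gate pairs the diabetic over normoglycemic ratio lay above 1 in cells of one sex and below 1 in the other, with both counting intervals clear of 1. The difference between the sexes was not tested, as each library is 1 pool. Arg2 in monocytes had a ratio of 0.564 in male and 2.08 in female cells. Acod1 in monocytes had 0.659 in male and 11.5 in female cells, and in neutrophils 0.551 in male and 1.18 in female cells. The last ratio rests on 53 female normoglycemic cells, whose Ass1 and Odc1 levels were unlike those of male neutrophils. Ass1 in macrophages had 1.28 in male cells, from 26.1 CPM in the diabetic and 20.3 CPM in the normoglycemic library, and 0.637 in female cells, from 19.4 CPM and 30.4 CPM.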

How the results depend on the processing

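No paired analysis was possible because each group is 1 library. Arg1 stayed higher in diabetic monocytes and macrophages under every alternative run. In neutrophils it did so wherever a ratio could be formed. With the lymphocyte level subtracted none could, as the normoglycemic neutrophil level of Arg1 was below that background. Each gene kept its highest gate with the stricter margin and with clusters. Ratios that had passed the fold turned round for Nos2 in macrophages without the highest doublet scores (4.39) and in male cells (1.22), for Acod1 in macrophages with the lymphocyte level subtracted (3.32), and in female cells for Arg2 in monocytes (2.08) and macrophages (1.10) and Acod1 in neutrophils (1.18). Over all alternatives, 233 ratios stayed within their reported counting interval, 112 moved and those 6 turned round. Ratios that had not passed the fold crossed 1 in 16 cases, 5 of them with an interval clear of 1: Acod1 in monocytes in female cells (11.5) and with the lymphocyte level subtracted (1.05), Ass1 in macrophages in male cells (1.28), Slc7a2 in macrophages without the highest doublet scores (1.45) and Nos2 in monocytes with clusters (0.943). Genes past the fold among the 7 came to 1 in dendritic cells with clusters, without the highest doublet scores, without the top 1% of cells, with a mean over cells, at 2-fold and at 50 CPM, and to 0 there with the lymphocyte level subtracted. In macrophages they were 2 without the highest doublet scores, with the lymphocyte level subtracted (Arg2 was no longer past the fold there), in male cells and at 50 CPM, and 1 in female cells and at 2-fold. In monocytes they were 2 with the lymphocyte level subtracted and 0 at 2-fold, and in neutrophils 1 at 2-fold. Nos2 in neutrophils was also no longer past the fold with TMM or size factor scaling or in male cells. Pathway genes past the fold in neutrophils were 13 with TMM and with size factors. At 2-fold they were 1, 0, 2 and 2 in monocytes, macrophages, dendritic cells and neutrophils, and 1 in macrophages at 50 CPM. The share of all genes past the fold is not given for these settings, so the counts have no background beside them. Of the pathway genes called, 4, 0, 2 and 4 stayed past the fold in monocytes, macrophages, dendritic cells and neutrophils with the lymphocyte level subtracted. Thinning to 1000 UMIs moved 43 of the co-detection ratios and left 34 within their interval, and Arg1 with Nos2 in monocytes was at 2.29 in the diabetic and 2.16 in the normoglycemic library. The subtraction for pathway genes, the restriction to cells of agreeing gate and cluster name and co-detection in male cells were chosen after seeing the data. Fewer genes or cells enter the stricter settings by construction; for the others the cause was not tested.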

Other observations

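Arg1 was also found outside the 4 gates. Cells gated as type 2 innate lymphoid cells, 33 in the diabetic and 124 in the normoglycemic library, held 90.6 CPM and 135 CPM of Arg1, against 19.2 CPM and 18.2 CPM in B cells. In the diabetic library, 269 cells gated as mural or muscle cells had 93.4 CPM of Slc7a2 and 53 gated as Schwann cells or melanocytes had 85.1 CPM, above the 55.1 CPM of diabetic monocytes. The normoglycemic library held 7 and 5 such cells, too few for a comparison. Cells gated as Langerhans cells had 73.9 CPM and 148 CPM of Ass1, in 117 diabetic and 150 normoglycemic cells. The cluster named for Langerhans cells held only 13 diabetic and 54 normoglycemic cells. Most cells of this gate thus lay in other clusters, and the gate may mix cell types.

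Cells that reached no gate, 892 diabetic and 920 normoglycemic, held 18.6% and 18.6% of all Arg1 UMIs and 16.9% and 25.9% of all Nos2 UMIs. Values for gated monocytes thus leave out a sizeable part of these transcripts.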
